A study of Mus musculus with 39 samples.

Results

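The second of 3 batches of nuclear RNA libraries compared INTACT with FANS, 2 ways of pulling the same kind of nuclei out of mouse neocortex. Its members were the libraries named as batch 2 in the column headers, 4 INTACT (replicates 1 to 4) and 7 FANS (replicates 1, 2 and 4 to 8), or 11 of the 37 RNA and ATAC libraries with values in the processed files. FANS replicate 3 and INTACT replicate 5 are named in the labels and were not analysed here.

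INTACT captures nuclei with magnetic beads carrying an antibody against a tag on the nuclear membrane, and FANS sorts fluorescent nuclei in a flow cytometer. All mice were adult males and females carrying R26 CAG-Sun1-sfGFP-Myc together with Arc creERT2(TG/WT), given tamoxifen and put through a social interaction test, and they were killed on the 3rd day after it. In this model the Arc promoter drives a tamoxifen-dependent Cre, and Cre switches on the nuclear membrane protein Sun1 fused to sfGFP, so that nuclei of cells that used Arc around the time of the test are tagged. Both techniques therefore drew on the same tagged nuclei, taken as equal aliquots of 1 nuclear preparation, and differed in the capture step. There was no untreated or untagged group. A batch stands for a distinct biological source per the study's methods, so the libraries of 1 technique within batch 2 were repeats from that source, and the p values below measure only the spread between these libraries, which may be technical.

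Nuclear RNA holds unspliced precursor transcripts and RNAs that stay in the nucleus, such as the small nucleolar RNAs (snoRNAs) and small Cajal body RNAs (scaRNAs) that guide chemical modification of ribosomal and spliceosomal RNA. Oligodendrocytes, the myelin-forming cells of the brain, and astrocytes, which take up neurotransmitter and supply lipid to neurons, make proteins that neurons make little of. Transcripts of these glial cells in a preparation of tagged neuronal nuclei can come from nuclei of those cells or from RNA carried along with other nuclei, and in bulk samples fewer cells of a type and less RNA per cell cannot be told apart.

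Values are normalized counts, which are read counts after removal of PCR duplicates divided by a size factor for each library. A total of 14876 genes had a mean of at least 5 over the 11 libraries. They were compared with limma on log2(normalized count + 1), and p values were adjusted with the Benjamini-Hochberg method over all of them. Fold changes are INTACT over FANS on that scale, which understates the change of low genes. Reads on genes ranged from 5402810 to 7292897 per library, and they did not separate the techniques (two-sided exact permutation test, n = 4 and 7, p = 0.361). Among the 10409 genes whose mean reached 50, the median standard deviation of log2 values was 0.133 over the FANS libraries and 0.125 over the INTACT libraries.

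The tag and the label of the tissue were checked first. Sun1, the gene the tag is built on, measured 1697 to 1924 in the FANS libraries and 1730 to 2007 in the INTACT libraries. Arc, whose promoter drives the Cre, measured 1190 to 1372 in FANS and 1235 to 1326 in INTACT. The ranges overlapped for both genes, as they did for the excitatory marker Slc17a7 (1929 to 2477 in FANS, 2259 to 2778 in INTACT), for the inhibitory marker Gad1 (120.4 to 196.2 and 158.4 to 162.6) and for the microglial marker P2ry12 (54.6 to 97.8 and 58.2 to 70.0). Mbp, a protein gene of oligodendrocytes, reached 1184 to 1993 normalized counts in FANS and 1834 to 2135 in INTACT, so transcripts of an oligodendrocyte gene were abundant in every library whatever the technique. The endothelial marker Cldn5 stood at 0 to 1.03 with both techniques.

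Few genes separated the techniques. At an adjusted p under 0.05 (limma), 124 genes were higher in INTACT, which is 0.834% of those tested, and 46 were lower, or 0.309%. With a change of at least 1.5-fold as well, 14 genes were enriched in INTACT (0.0941%) and 5 were depleted (0.0336%). The unadjusted p was under 0.05 for 2268 genes. Over all genes tested the median log2 fold change was -0.001, with 7411 genes above 0 and 7465 below it. The 4 INTACT libraries all lay on 1 side of the 7 FANS libraries for 445 genes (2.99%), among them 94 of the 124 higher genes and 33 of the 46 lower genes, though the same values had chosen those genes.

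**Figure D1:**
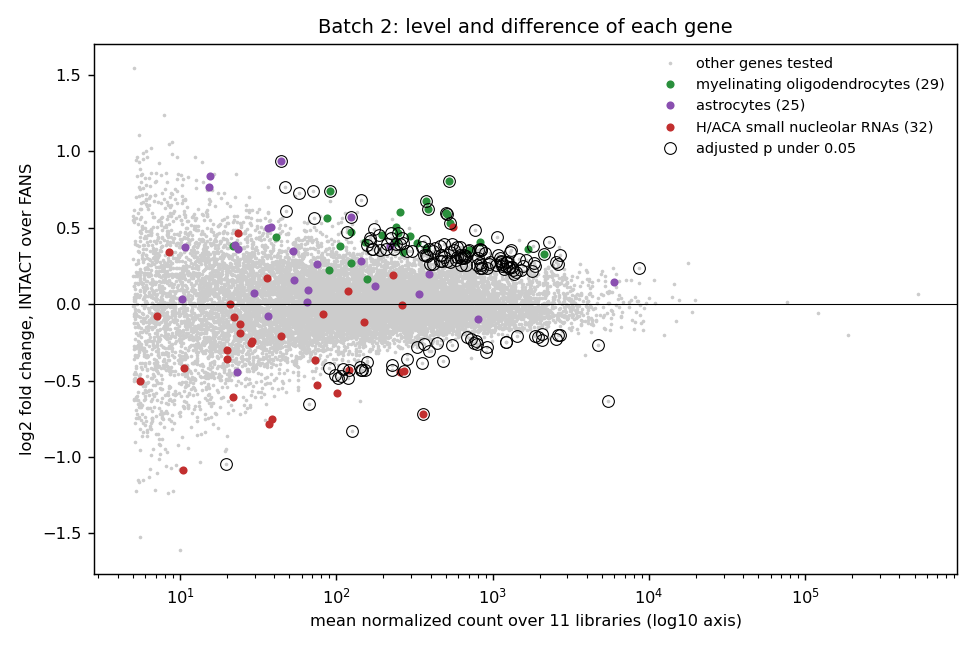
Log2 fold change, INTACT over FANS, of each gene against its mean normalized count over the 11 libraries, on a log10 axis. Grey points are genes tested, coloured points are members of 3 gene lists, rings mark genes with an adjusted p under 0.05, and 2 called genes are left out. The ringed myelin markers (green) lie above 0 and the ringed H/ACA snoRNAs (red) below it, and most rings lie within 1.5-fold of no change.

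Of the 14876 genes tested, 100 were listed as snoRNAs or scaRNAs, 198 as microRNA genes and 7 as other short RNAs. Short non-coding RNAs made up 4 of the 5 depleted genes. They were Rmrp, the RNA of the ribonuclease RNase MRP that processes ribosomal RNA precursors, Scarna6, Snora23 and the microRNA gene Mir6516. A pair of further snoRNAs, Snora81 and Snora16a, passed the adjusted p with smaller changes. Their RefSeq sequences in GRCm38.p6 are printed below. The study names UCSC annotation of mm10, so the intervals on which its reads were counted may differ from these. For the small nucleolar RNAs of the H/ACA class, which guide pseudouridylation, the letters ACA that mark the class are in capitals where they lie 3 bases from the 3′ end of the RefSeq model.
Rmrp: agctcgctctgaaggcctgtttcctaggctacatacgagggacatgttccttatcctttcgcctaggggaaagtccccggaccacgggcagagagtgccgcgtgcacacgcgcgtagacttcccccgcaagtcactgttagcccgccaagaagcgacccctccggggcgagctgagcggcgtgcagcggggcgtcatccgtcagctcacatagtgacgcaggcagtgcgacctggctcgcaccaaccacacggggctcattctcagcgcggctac
Scarna6: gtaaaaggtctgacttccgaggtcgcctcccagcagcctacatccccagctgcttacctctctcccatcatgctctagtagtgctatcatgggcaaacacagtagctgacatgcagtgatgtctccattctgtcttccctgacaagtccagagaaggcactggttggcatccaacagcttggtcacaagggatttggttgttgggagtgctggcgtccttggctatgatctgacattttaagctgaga
Snora23: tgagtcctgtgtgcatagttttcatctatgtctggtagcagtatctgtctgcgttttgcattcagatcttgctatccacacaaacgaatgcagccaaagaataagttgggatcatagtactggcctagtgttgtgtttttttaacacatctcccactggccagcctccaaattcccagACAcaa
Snora81: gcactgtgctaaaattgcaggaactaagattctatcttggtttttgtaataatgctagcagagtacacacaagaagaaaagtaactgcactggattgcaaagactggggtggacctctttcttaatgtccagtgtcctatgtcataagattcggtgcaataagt
Snora16a: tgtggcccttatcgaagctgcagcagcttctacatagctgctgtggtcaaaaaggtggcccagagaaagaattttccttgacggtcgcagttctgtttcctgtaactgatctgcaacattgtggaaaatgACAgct
Rmrp lies on the minus strand of chromosome 4 at 43492785 to 43493059, and it is a gene of its own of 275 bases. Scarna6 (chromosome 1, 87784571 to 87784818, plus strand) lies in an intron of Atg16l1, Snora23 (chromosome 7, 110046364 to 110046547, plus strand) in an intron of Ipo7, Snora81 (chromosome 16, 23110770 to 23110933, plus strand) in an intron of Eif4a2, and Snora16a (chromosome 4, 132309465 to 132309600, plus strand) in an intron of the host gene Snhg12. The ACA was found at that place in 22 of the 32 tested H/ACA snoRNA genes (68.8%), in 1 of the 59 tested C/D snoRNA genes (1.7%) and in 2 of the 9 scaRNA genes (22.2%), so Snora81 and Scarna6 were not alone in lacking it.

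Mir6516 (chromosome 11, 117077348 to 117077457, plus strand) lies in an intron of the host gene Snhg20. Its mature products are printed with the seed, bases 2 to 8, in capitals, and each seed occurred in no other of the 1738 mature mouse microRNAs in the RefSeq table.
mmu-miR-6516-5p: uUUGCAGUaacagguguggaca
mmu-miR-6516-3p: uCAUGUAUgauacugcaaacag
The row counts reads on the hairpin gene and does not separate the mature microRNA from its precursor.

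Rmrp measured 3427, 4501, 3473 and 4400 normalized counts in INTACT replicates 1 to 4, and the FANS libraries ran from 3868 through a median of 6845 to 8157. FANS replicates 2 and 6 fell within the INTACT range, and the other 5 FANS libraries were above it. The log2 fold change was -0.63 (SE 0.134, limma adjusted p = 0.0175).

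Scarna6 measured 72.5, 109, 63.8 and 86.9 in INTACT, against 87.4, 140.2 and 197 as the lowest, median and highest FANS values (log2 fold change -0.83, SE 0.161, limma adjusted p = 0.0113). Snora23 measured 208, 285, 190.4 and 319 in INTACT, against 227, 416 and 582 in FANS (log2 fold change -0.72, SE 0.165, limma adjusted p = 0.0267). Mir6516 measured 37.6, 51.5, 49.4 and 52.8 in INTACT, against 50.1, 84.0 and 96.7 in FANS (log2 fold change -0.66, SE 0.165, limma adjusted p = 0.0443). For all 3 of these RNAs FANS replicate 2 was the one FANS library that reached into the INTACT range, and the others were above every INTACT library. Without FANS replicate 2, 10 genes were depleted and 74 were lower, and without INTACT replicate 1 these counts were 1 and 4, with 0 of the 5 depleted genes still among them. Scarna6 (-0.74), Snora23 (-0.60) and Mir6516 (-0.54) lost the call with a correction for GC content and gene span, and Mir6516 kept it in 2 of the 11 fits that left out a library.

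Snora81 did not overlap between the techniques, at 194, 240.5, 235 and 208 in INTACT and 243 to 359 in FANS (log2 fold change -0.44, SE 0.0992, limma adjusted p = 0.0249). Snora16a fell by 0.43 on the log2 scale (SE 0.109, limma adjusted p = 0.048), with FANS replicate 8 inside the INTACT range of 89.1 to 107.

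None of the genes whose introns hold these RNAs passed the test. The log2 fold change was -0.01 for Atg16l1 (SE 0.0674, limma adjusted p = 0.949), -0.04 for Ipo7 (SE 0.0587, adjusted p = 0.808) and 0.05 for Eif4a2 (SE 0.0521, adjusted p = 0.664). The host transcripts with little coding capacity stood at 0.10 for Snhg20 (SE 0.0896, limma adjusted p = 0.635) and 0.15 for Snhg12 (SE 0.112, limma adjusted p = 0.57). Every one of the 5 hosts overlapped between the techniques, and none shared exonic sequence with its small RNA. The host rows thus do not measure unspliced host RNA from the introns that hold these RNAs. Whether such RNA added reads to the rows of the small RNAs was not tested. Atg16l1, a protein of autophagosome formation, measured 692 to 837 in the INTACT libraries and 691 to 876 in the FANS libraries.

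Of all 14876 genes tested, 7465 had a negative log2 fold change, and the median was -0.001. Among short RNAs as classes, 25 of the 32 tested H/ACA snoRNAs had a negative log2 fold change, with a median of -0.25. The 3 that passed were lower, 1 of them at 1.5-fold. Snora3 (-0.75), Snora15 (-0.44) and Snora21 (-0.53) came next, with limma adjusted p values of 0.0691, 0.0747 and 0.0839. The C/D snoRNAs, which guide ribose methylation, had a median of -0.06 with 32 of 59 below 0, and none passed. The 9 scaRNAs had a median of -0.18 with Scarna6 as the member that passed, and the 198 microRNA genes had a median of -0.15 with 129 below 0 and Mir6516 as the member that passed. All 7 other short RNAs tested were below 0 (median -0.19), and Rmrp was the one that passed. The summed normalized count of the 32 H/ACA snoRNAs and the 4 that were not tested spanned 2437 to 4672 in FANS and 2266 to 3251 in INTACT, so the class total overlapped. The number of H/ACA members that were lower was 0 without FANS replicate 7 or INTACT replicate 1, with no filter on low values and with a correction for GC content and gene span, which moved their median to -0.16, and it was 6 without FANS replicate 2. Without INTACT replicate 3 the H/ACA median was -0.16 and 1 was lower, and the scaRNA median was -0.10. The median of the other short RNAs was -0.09 without FANS replicate 5 and -0.10 without INTACT replicate 4. The correction for GC content and gene span turned the C/D median to 0.11.

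The remaining depleted gene, 4930590J08Rik, is a protein-coding gene of chromosome 6 (91900751 to 91951736, plus strand) at a low level. It measured 12.5, 9.16, 10.3 and 13.2 in INTACT and 21.3 to 27.8 in FANS, with a median of 23.8. The techniques did not overlap, and the log2 fold change was -1.04 (SE 0.213, limma adjusted p = 0.0149).

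**Figure D2:**
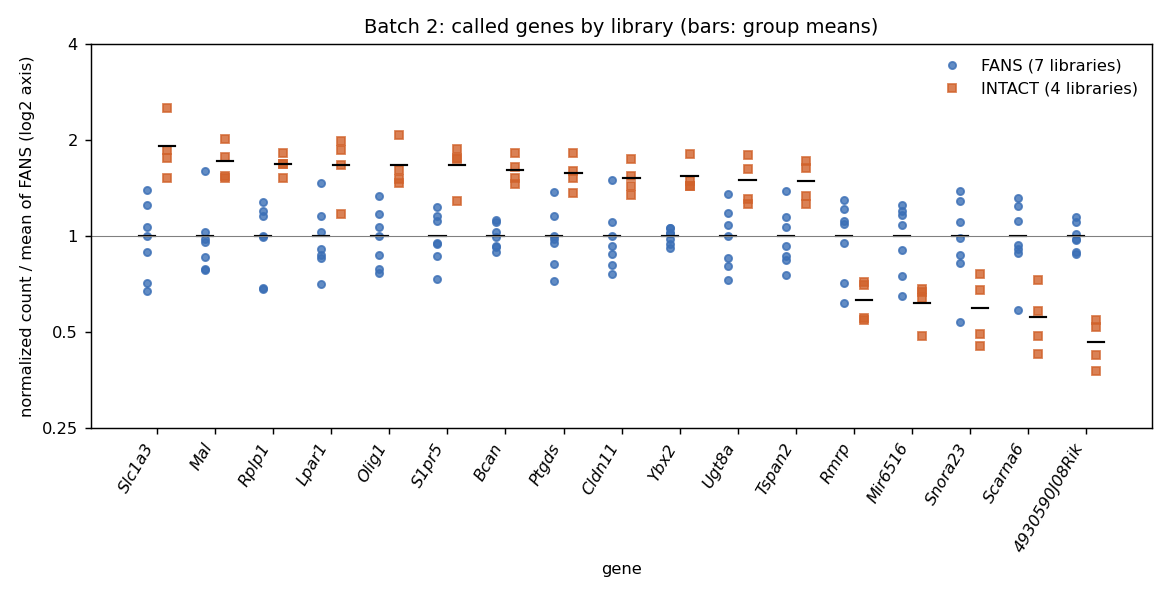
Normalized counts of the called genes divided by the mean of the FANS libraries, on a log2 axis, with 1 point per library (7 FANS and 4 INTACT), a bar at each technique's mean and 2 called genes left out. FANS replicate 5 is the FANS point that reaches the INTACT points for Mal, and FANS replicate 2 is the one that reaches them for Scarna6, Snora23 and Mir6516.

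Genes of oligodendrocytes were the largest group among the enriched genes. Of 30 markers of myelinating oligodendrocytes, all tested, 11 were higher in INTACT and none was lower, 7 passed at 1.5-fold, and the median log2 fold change of the 30 was 0.44, with all 30 above 0. The summed count of the 30 was 12320 to 22220 in FANS and 21590 to 26060 in INTACT, and FANS replicate 5 alone reached into the INTACT range. The list was chosen with results of these libraries known, so its direction is no separate evidence.

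Mal (chromosome 2, 127633226 to 127656695, minus strand), a membrane protein that sorts cargo into myelin, measured 741, 843, 636 and 647 in INTACT, and 327, 400.4 and 669.6 as the lowest, median and highest in FANS. FANS replicate 5, at 669.6, was above INTACT replicates 3 and 4, and the remaining FANS libraries were below all INTACT libraries. The log2 fold change was 0.81 (SE 0.123, limma adjusted p = 0.00235).

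The other 5 of the enriched markers described here had FANS replicate 5 in the INTACT range as well. Ptgds, a prostaglandin synthase, rose by 0.67 on the log2 scale (SE 0.113, limma adjusted p = 0.0034), and Cldn11, the tight junction protein of myelin, by 0.63 (SE 0.117, adjusted p = 0.00978). The tetraspanin gene Tspan2 rose by 0.59 (SE 0.114, limma adjusted p = 0.0112), Ugt8a, the enzyme that makes the myelin lipid galactosylceramide, by 0.60 (SE 0.12, adjusted p = 0.0146), and the lysophosphatidic acid receptor Lpar1 by 0.74 (SE 0.159, adjusted p = 0.0188). Ptgds measured 493, 562, 471 and 422 in INTACT against 223, 304 and 424 in FANS, and Lpar1 measured 137, 145, 122 and 85.8 against 51.9, 67.0 and 108, so the same FANS library was high at both high and low counts. Tspan2 shares 88 exonic bases with an antisense RNA, Tspan2os, which was not tested.

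Mag, an adhesion protein between myelin and axon, passed without reaching 1.5-fold. It measured 695, 726, 614 and 596 in INTACT and 372, 420.5 and 589 in FANS, with no overlap (log2 fold change 0.53, SE 0.108, limma adjusted p = 0.0149). Sept4 (0.36, adjusted p = 0.0188), Apod (0.47, adjusted p = 0.0267) and Enpp2 (0.33, adjusted p = 0.03) were the other list members that passed under limma. Mbp did not: it measured 1184, 1623 and 1993 in FANS and 1834 to 2135 in INTACT (0.36, limma adjusted p = 0.0754).

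How many myelin genes passed depended on single libraries. The count of 11 became 3 without INTACT replicate 1, 4 without INTACT replicate 2, 18 without FANS replicate 4 and 21 without FANS replicate 5. Over all genes the 14 enriched became 5 without INTACT replicate 1 and 35 without FANS replicate 5. All 30 members stayed above 0 in each of these fits.

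S1pr5, a receptor for sphingosine 1-phosphate found on oligodendrocytes and on no list used here, was enriched. It measured 80.5, 81.3, 59.7 and 86.9 in INTACT and 34.0, 44.2 and 56.9 in FANS, with no overlap (log2 fold change 0.73, SE 0.154, limma adjusted p = 0.0182).

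Bcan and Olig1 were enriched among the 16 tested genes of the oligodendrocyte lineage and its precursors, of which 14 were above 0 with a median of 0.39. Bcan (chromosome 3, 87987531 to 88002175, minus strand) codes for brevican, a proteoglycan of the brain's extracellular matrix that astrocytes and oligodendrocyte precursors make. It measured 179, 171, 213 and 194 in INTACT and 105, 117 and 132 in FANS, and the techniques were well apart (log2 fold change 0.68, SE 0.0967, limma adjusted p = 0.000884). Olig1, a transcription factor of the lineage, measured 92.2, 118, 86.4 and 83.6 in INTACT and 43.7, 56.9 and 76.2 in FANS, also with no overlap (0.74, SE 0.151, limma adjusted p = 0.0149). Its partners Sox10 (0.68, limma adjusted p = 0.0879) and Olig2 (0.50, limma adjusted p = 0.146) did not pass. With a correction for GC content and gene span, which was chosen after seeing the data, Bcan still passed (0.58, limma adjusted p = 0.00479) but fell just short of 1.5-fold, Olig1 kept a log2 fold change of 0.62 without passing (limma adjusted p = 0.0762), and the median of the 16 was 0.38. That median was 0.24 without INTACT replicate 2.

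Of 25 tested astrocyte markers, 22 were above 0 with a median of 0.27, and 2 passed. Slc1a3 (chromosome 15, 8634124 to 8710807, minus strand), the glutamate transporter GLAST, measured 58.1, 83.6, 50.4 and 61.6 in INTACT and 22.4, 33.2 and 46.3 in FANS (log2 fold change 0.93, SE 0.192, limma adjusted p = 0.0149). Apoe, the main lipid carrier protein of the brain, measured 191, 157, 156 and 124 in INTACT and 87.4, 106 and 118 in FANS (0.57, SE 0.114, limma adjusted p = 0.0142). Neither gene overlapped between the techniques. Aqp4, the water channel of astrocyte endfeet, stood at 7.85 to 17.8 in FANS and 15.4 to 28.6 in INTACT (0.77, limma adjusted p = 0.145), and Gfap, at 3.21 to 25.4 and 6.17 to 21.5, was low with both techniques. The summed count of the astrocyte markers overlapped, at 7253 to 9350 in FANS and 8485 to 10290 in INTACT. The number of astrocyte genes that were higher was 0 without INTACT replicate 1 and 3 when INTACT replicate 3, FANS replicate 2 or FANS replicate 5 was left out. Without FANS replicate 1 the astrocyte median was 0.16, with 19 above 0.

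No member passed among the markers of other cell types, which were 9 tested microglial markers (median -0.05, 3 above 0), 7 vascular markers (median 0.12), 21 excitatory neuron markers (median 0.01, 11 above 0) and 18 inhibitory neuron markers (median 0.08, 13 above 0). The summed counts overlapped for microglial markers (599.8 to 779.9 in FANS, 610.5 to 756.8 in INTACT) and for excitatory markers (31230 to 32830 and 30450 to 31950). For inhibitory markers the sum was 1282 to 1460 in FANS and 1468 to 1666 in INTACT and did not overlap, although the member with the smallest p, Reln, stayed at a limma adjusted p of 0.0561.

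**Figure D3:**
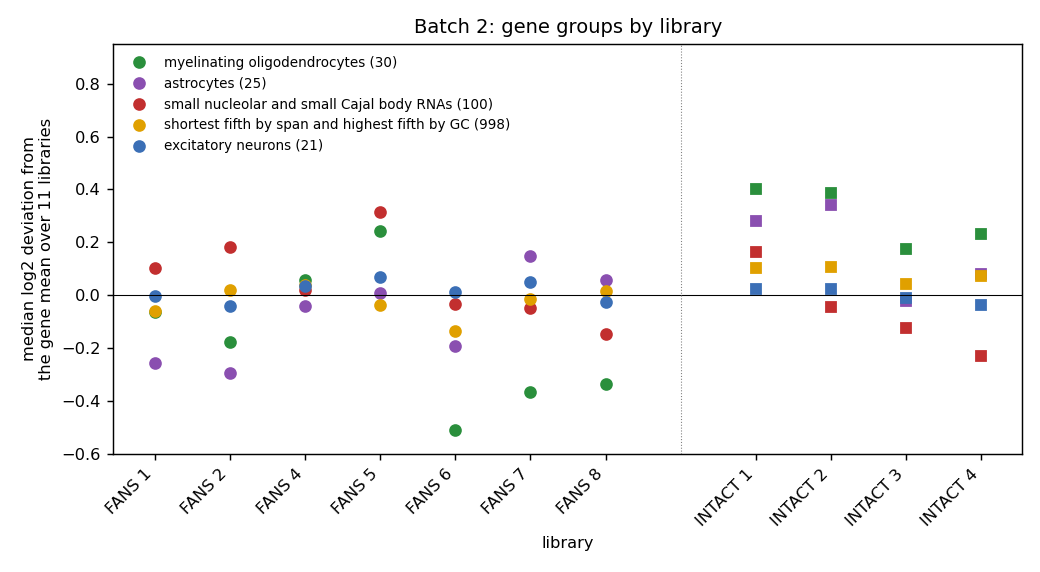
Median log2 deviation of 5 groups of genes from the gene means over the 11 libraries, with 1 marker per group and library (circles FANS, squares INTACT). For the 30 myelin markers (green) the INTACT libraries lie between 0.174 and 0.4 with FANS replicate 5 (0.241) among them, FANS replicates 6, 7 and 8 lie lowest, and the excitatory neuron markers (blue) stay near 0 in every library.

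The libraries of 1 technique also differed among themselves. The median deviation of the 30 myelin markers, on the log2 scale against the mean of the 11 libraries, was -0.51, -0.37 and -0.34 in FANS replicates 6, 7 and 8 and 0.24 in FANS replicate 5, a spread within FANS wider than the distance of 0.44 between the techniques. The INTACT libraries stood at 0.40, 0.39, 0.17 and 0.23. Excitatory neuron markers lay between -0.04 and 0.07 in all 11 libraries. The 100 tested snoRNAs and scaRNAs spanned -0.15 to 0.31 across the FANS libraries and -0.23 to 0.17 across the INTACT libraries.

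Apart from glial genes, the enriched genes were Rplp1, Ybx2 and a gene that is not reported here. Rplp1, a stalk protein of the ribosome, measured 62.6, 63.0, 56.6 and 68.2 in INTACT and 25.5, 37.3 and 47.9 in FANS (log2 fold change 0.76, SE 0.175, limma adjusted p = 0.0267). Ribosomal protein genes have processed copies elsewhere in the genome with which reads can be shared, so its count is uncertain. It was the one of 76 tested cytosolic ribosomal protein genes that passed, and the 76 had a median of 0.09 with 51 above 0. Ybx2, a nucleic acid binding protein of germ cells, measured 57.3, 57.3, 72.0 and 59.4 in INTACT and 36.4, 40.6 and 42.2 in FANS (0.61, SE 0.141, limma adjusted p = 0.028). Neither gene overlapped between the techniques, but both lost the call when any of the 4 INTACT libraries was left out.

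Most of the genes that were higher in INTACT rose by less than 1.5-fold, and 123 of the 124 code for proteins, as do 13531 of all 14876 genes tested. Arhgef25 (chromosome 10, 127182521 to 127190083, minus strand), a guanine nucleotide exchange factor, measured 1266, 1199, 1274 and 1354 in INTACT and 744, 964 and 1018 in FANS (log2 fold change 0.44, SE 0.0685, limma adjusted p = 0.00235). Kifc2 (chromosome 15, 76659784 to 76668196, plus strand), a kinesin motor of neurons, measured 2109, 2058, 2006 and 2277 in INTACT and 1315, 1656 and 1753 in FANS (0.38, SE 0.0631, limma adjusted p = 0.0034). Both were separated without overlap, with FANS replicate 5 as the lowest library, the same library that was highest among FANS for myelin genes.

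Coro6, an actin-binding coronin, rose by 0.49 on the log2 scale (SE 0.0806, limma adjusted p = 0.0034) and Cacna1h, a T-type calcium channel, by 0.39 (SE 0.0653, adjusted p = 0.0034). Coro6 measured 921, 875, 949 and 1013 in INTACT against 507, 693 and 780.0 in FANS, and Cacna1h measured 649.5, 657, 618 and 654 against 434, 497 and 557. FANS replicate 5 was lowest for both of these as well. The next by p were Fcho1 (0.35, limma adjusted p = 0.0034) of endocytosis, the procollagen protease Bmp1 (0.34, 0.00456), Tmem145 (0.34, 0.00562), Nrbp2 (0.41, 0.00562), the mitochondrial transport GTPase Rhot2 (0.34, 0.0061) and Ptprn (0.28, 0.0061), a protein of secretory vesicles. None of these overlapped between the techniques. Kifc2, Cacna1h, Bmp1 and Nrbp2 share between 76 and 662 bases of exon with genes on the other strand, and the strand setting of the counting is not given in the sources used here, so reads of those partners cannot be told apart from theirs.

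Of 32 tested transcripts that are abundant in the cytoplasm, 26 were above 0 with a median of 0.11, and the ferritin heavy chain gene Fth1 (0.39, limma adjusted p = 0.0216) and the neuronal enolase gene Eno2 (0.24, limma adjusted p = 0.0391) passed. The number that passed was 0 when INTACT replicate 1, FANS replicate 1 or FANS replicate 6 was left out, with no filter on low values and with the correction for GC content and gene span, where 20 were above 0 with a median of 0.04. None of the 72 tested oxidative phosphorylation genes passed (median 0.05), none of 37 ER chaperone and unfolded protein response genes (median 0.12), none of 16 heat shock protein genes (median 0.03) and none of 20 nuclear envelope genes (median 0.02). With single libraries left out the ER median ran from 0.05 (without INTACT replicate 2) to 0.15 (without INTACT replicate 4). The 49 splicing factors had a median of 0.02, the 18 nuclear long non-coding RNAs of 0.02, the 15 snoRNA host genes of 0.01, the 30 replication-dependent histones of -0.17 (-0.09 without FANS replicate 7 and -0.10 without FANS replicate 8) and the 105 opposite-strand transcripts of -0.09, and no member of these lists passed. Of 321 Zfp zinc finger genes, Zfp598, a ubiquitin ligase that acts on stalled ribosomes, was higher (0.36, limma adjusted p = 0.0128) and the median was -0.04. Malat1, a long non-coding RNA held in the nucleus, measured 447300 to 694100 in FANS and 490800 to 577100 in INTACT.

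Among the lower genes that were not called at 1.5-fold, Fgf14, Nr4a3 and Dgki had the smallest p values. Fgf14 (chromosome 14, 123974441 to 124677686, minus strand), which binds neuronal sodium channels, measured 402, 421, 411 and 375 in INTACT and 475, 512 and 603 in FANS (log2 fold change -0.37, SE 0.0675, limma adjusted p = 0.00647). Dgki, a diacylglycerol kinase, measured 778, 819, 808 and 803 against 914, 979 and 1042 (-0.28, SE 0.0535, limma adjusted p = 0.0102). Both were separated without overlap, and the INTACT values were close together. On the other strand Fgf14 shares 4425 exonic bases with Itgbl1 (-0.21, limma adjusted p = 0.411), and Dgki shares 4231 with a long non-coding RNA that was not tested. How reads on the shared bases were assigned depends on the strand setting, which is not given in the sources used here.

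Rims1, which codes for a protein of the presynaptic active zone, measured 1800, 1927, 1878 and 1804 in INTACT and 2024, 2193 and 2395 in FANS (-0.23, limma adjusted p = 0.0205). Magi2 (chromosome 5, 19219387 to 20704792, plus strand), a synaptic scaffold, measured 1755, 1706, 1822 and 1741 against 1926, 2035 and 2153 (-0.22, limma adjusted p = 0.0242). Neither overlapped between the techniques. The synaptic adhesion gene Igsf9b (-0.25, adjusted p = 0.0215) and Thsd7b (-0.43, adjusted p = 0.0175) passed under limma too, as did the long non-coding RNAs Rmst (-0.47, adjusted p = 0.0188) and Lincpint (-0.26, adjusted p = 0.0182) and the single-exon gene Mab21l1 (-0.39, adjusted p = 0.0188). Magi2 and Thsd7b share between 117 and 415 bases of exon with genes on the other strand. Mab21l1 lies within Nbea (-0.17, limma adjusted p = 0.105) on the other strand and shares no exonic bases with it. How reads at these places were assigned depends on the strand setting, which is not given in the sources used here.

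A pair of immediate early genes, which neurons switch on within minutes of activity, was among them. Nr4a3, a nuclear receptor, measured 299, 262, 333 and 297 in INTACT and 361, 377 and 419 in FANS (log2 fold change -0.38, SE 0.0723, limma adjusted p = 0.00996). Homer1, a postsynaptic scaffold whose short form is made on activity, measured 2352, 2334, 2543 and 2367 against 2564, 2725 and 2978 (-0.20, SE 0.0503, limma adjusted p = 0.0443). Neither overlapped between the techniques, though for Homer1 INTACT replicate 3 came near the lowest FANS library. Of the 20 immediate early genes tested, 8 were above 0 and 12 below, with a median of -0.06, and the log2 fold change of Arc itself was -0.05 (limma adjusted p = 0.697). The summed count of the 20 was 8188 to 8712 in FANS and 7631 to 7883 in INTACT, with no overlap. That sum includes the pair, with FANS and INTACT means of 2758 and 2399 for Homer1 and 387.7 and 297.9 for Nr4a3. It is therefore no separate result about the class. Of the pair 1 no longer passed when FANS replicate 1, 6, 7 or 8 or INTACT replicate 1, 2 or 4 was left out.

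The higher and the lower genes were also described by base composition and length. The exonic GC content had a median of 56.6% for the 124 higher genes, 44.5% for the 46 lower genes and 49.8% for all genes with annotation. The gene span, from the first to the last base of the gene, had a median of 15370 bases for the higher genes, 113100 for the lower genes and 23470 for all. Higher genes had a median of 17 exons and lower genes of 9.5, against 9 for all. Of the 46 lower genes 12 were non-coding, against 1197 of all 14876 tested.

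Across all genes the same order was seen with small differences. Over quintiles of the genes by GC content, from the lowest to the highest, the median log2 fold change was -0.041, -0.028, -0.011, 0.021 and 0.092. The highest quintile held 79 of the 124 higher genes, or 2.66% of its 2968, and the lowest quintile held 5 of them (0.168%), while of the 46 lower genes 22 were in the lowest quintile and 1 in the highest. Over quintiles by span, from the shortest, the medians were 0.049, 0.038, 0.004, -0.02 and -0.04.

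The 2 properties go together, so they were also crossed. The 998 genes that were both in the shortest quintile and in the highest GC quintile had a median of 0.104, and the 811 in the longest quintile and the lowest GC quintile had -0.055. Among the longest genes the 210 in the highest GC quintile stood at 0.031, and among the shortest genes the 363 in the lowest GC quintile stood at -0.043, so within these corners the sign went with GC content. Across the 14837 annotated genes Spearman's rank correlation with the log2 fold change was 0.228 for GC content and -0.144 for span, a description over genes that share the same 11 libraries. The 998 short, GC-rich genes deviated by 0.043 to 0.107 in the INTACT libraries and by -0.135 to 0.039 in the FANS libraries (medians, log2 scale). After the log2 fold change expected from GC content and gene span was taken out, 28 genes were higher and 7 lower, 24 and 7 of them among the 124 and 46.

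**Figure D4:**
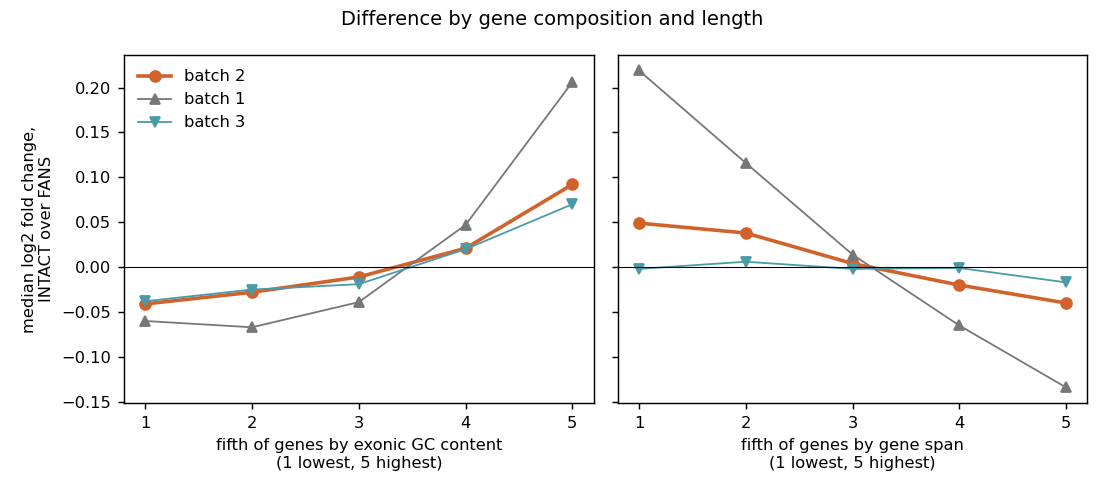
Median log2 fold change, INTACT over FANS, by quintiles of exonic GC content (left) and of gene span (right), numbered 1 for the lowest to 5 for the highest, with 1 line per batch. In batch 2 the medians go from -0.041 to 0.092 with GC content and from 0.049 to -0.04 with span, and batch 1 covers a wider range on both.

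The share of reads outside the counted gene features also differed. RNAs lying in host introns had counts of their own, so host introns appear not to have been counted. Reads from introns of genes can therefore fall in this share, and it is not a share of reads between genes. Of the uniquely aligned reads, 82.5% ± 0.753 (SD, n = 7) lay outside annotated gene features with FANS and 80.6% ± 0.659 (SD, n = 4) with INTACT. All INTACT libraries were below all FANS libraries (exact permutation test, two-sided p = 0.00303, the smallest p that 330 splits allow, and 0.00758 after adjustment over 5 library measures). The share of ambiguous reads, which fall on more than 1 gene, was 0.191% ± 0.0107 and 0.215% ± 0.0062, with the same exact p. The number of genes with at least 1 read did not separate the techniques (exact permutation p = 0.227, adjusted 0.284).

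The effect of technique was compared with that in the other batches, which shared no library with batch 2. In batch 1, 2817 genes were higher in INTACT (18.6% of 15114) and 2641 lower (17.5%), and in batch 3, 171 were higher (1.18% of 14440) and 75 lower (0.519%). The paper reports a higher range of RNA integrity for the batch with the most such genes than for the other batches. RNA integrity thus differed along with batch, and its part in the differences between batches was not tested. The size of the effect differed between batches 1 and 2 for 1394 of 14778 genes (9.43%) by the interaction term in limma, with 3448 genes at an unadjusted p under 0.05. Between batches 2 and 3 it differed for 0 of 14357 genes (0%), although 1577 genes had an unadjusted p under 0.05; no other tool was run on this comparison, and a p that misses the threshold does not show that the effects are alike.

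All 12 reported enriched genes were above 0 in batch 1, 10 passed, and their median log2 fold change was 0.72, against 0.71 in batch 2. In batch 3, 10 of the 12 were above 0 with a median of 0.18, and 1, Bcan, passed (0.50, SE 0.114, limma adjusted p = 0.0155). The log2 fold changes of Mal were 1.07, 0.81 and 0.21 in batches 1, 2 and 3, and those of Slc1a3 were 1.52, 0.93 and 0.16. The 30 myelin markers had medians of 0.58, 0.44 and 0.11 in batches 1, 2 and 3, and the astrocyte markers had 0.27 over the 25 tested in batch 2, against 0.83 over the 28 tested in batch 1 and -0.005 over the 26 tested in batch 3. None of the differences for the 12 genes passed the interaction test against either batch.

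All 5 depleted genes were below 0 in batch 3, and 4 of them passed, with a median of -0.79 against -0.72 in batch 2. In batch 1, 4 of the 5 were below 0, none passed, and the median was -0.17. Snora23 had log2 fold changes of -0.17, -0.72 and -1.67 in batches 1, 2 and 3, and Mir6516 had -0.17, -0.66 and -1.19. Rmrp stood at 0.16 in batch 1 (SE 0.113), -0.63 in batch 2 and -0.76 in batch 3 (SE 0.158), and the difference between batches 1 and 2, 0.80, passed (limma interaction, adjusted p = 0.014). The H/ACA snoRNAs had medians of -0.19, -0.25 and -0.92 in batches 1, 2 and 3, over 32, 32 and 31 tested genes.

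**Figure D5:**
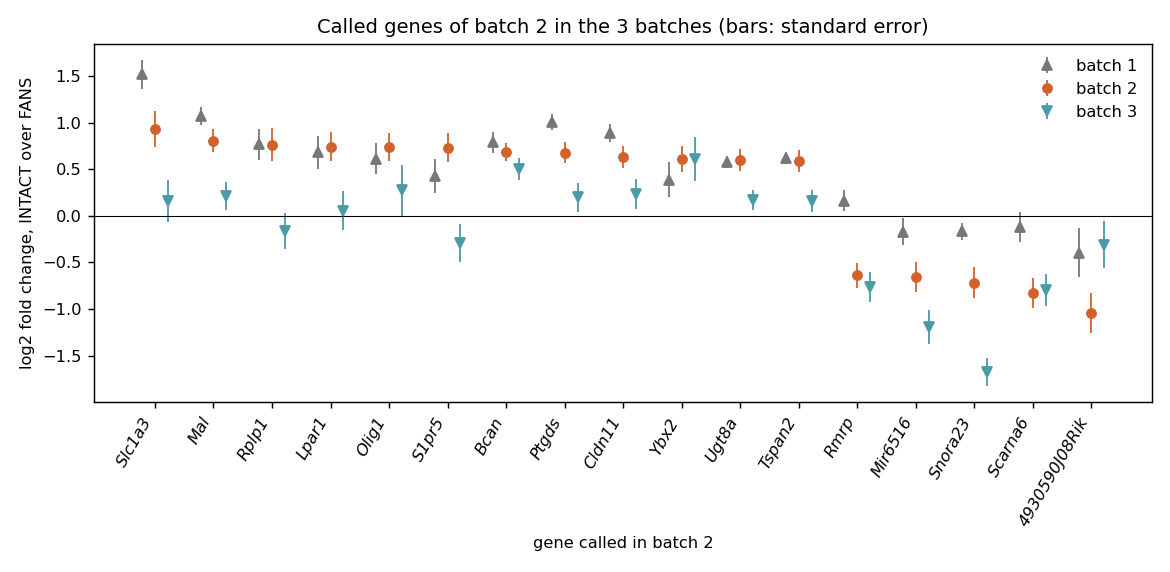
Log2 fold change, INTACT over FANS, of the called genes of batch 2 in each of the 3 batches (points) with its standard error (bars), 2 called genes left out. The 12 enriched genes are above 0 in batches 1 and 2, and 10 of them are in batch 3, while Snora23 and Mir6516 are lowest in batch 3.

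Of the 124 higher genes, the enriched ones among them, 123 were tested in it, all were above 0 there and 117 passed (median 0.45), and in batch 3, 112 of 123 were above 0 and 45 passed (median 0.23). Arhgef25 had 0.65 in batch 1 and 0.30 in batch 3, and it passed in both (limma adjusted p = 2.65e-09 and 0.0121), as did Kifc2 (0.52 and 0.29, adjusted p = 8.73e-09 and 0.0101). Of the 46 lower genes, 44 were below 0 in batch 1 and 36 passed (median -0.47), whereas in batch 3, 29 were below 0 and 6 passed (median -0.03). Against batch 1 the difference in effect passed for 9 of the higher genes and 14 of the lower genes, and against batch 3 for none. By GC quintiles the medians ran from -0.06 to 0.206 in batch 1 and from -0.038 to 0.07 in batch 3, and by span quintiles from 0.219 to -0.134 and from -0.002 to -0.017.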

How the data were processed

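Nuclei were released from mouse neocortex, cleaned on an iodixanol gradient and captured by INTACT or FANS, and 10000 nuclei per library gave RNA from which 1.23 ng entered the library protocol (13 PCR cycles, with ribosomal RNA depletion and molecular identifiers, per the study's methods). The authors used STAR for alignment (mm10), collapsed duplicates that shared a molecular identifier, counted with HTSeq and normalized with DESeq, as the labels and methods state, and the strand setting is not given in the sources used here. The deposited values are normalized counts (a signal scaled per library, each batch in its own table); tests were run only within a table, apart from the interaction term, which compares differences. All values up to 100 reads were whole multiples (within 0.01) of what 1 read is worth in each library, so whole reads were recovered for 100% of them and used in the count tests. The 5 summary rows of HTSeq stayed out of the tests. Reads outside the counted gene features were 79.8% to 84.0% of a library's uniquely aligned reads (on these features, outside them or ambiguous). They can include reads from introns of genes. Columns of the authors' own comparisons were not used.

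Genes whose mean reached 5 were fitted with limma 3.58.1 in R 4.3.3 (lmFit, eBayes with trend) on log2(value + 1). A gene passed at a Benjamini-Hochberg adjusted p under 0.05 and was enriched or depleted at 1.5-fold as well. Alternatives were edgeR 4.0.16 and DESeq2 1.42.0 on the whole reads, other scalings, filters, pseudocounts and weights, a replicate block, each library left out in turn and, chosen after the data were seen, a correction for exonic GC content and gene span. Libraries of 1 technique differed by 1.76 to 9.21 in chi-square per gene over 27 pairs, so none was a duplicate.

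The members and the gene lists were chosen with earlier results of these data known. Named genes were all that were called, the 10 smallest p values in each direction among uncalled genes with a mean of at least 50, up to 4 of each list and checks of the labels. Outside this rule, Mag, Sept4, Apod, Enpp2, Sox10, Olig2, Snora3, Snora15, Snora21, the host genes of short RNAs and Itgbl1 were chosen after their values were seen. The values of 2 called genes are not reported here. Positions and sequences come from RefSeq on GRCm38.p6, to which 23178 of 24421 genes were matched by symbol and 1096 by an older symbol.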

Additional observations from a re-analysis of the deposited data

Results flagged for a closer look

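The normalized count of Mal in FANS replicate 5 was 669.6, and the next FANS library stood at 430.1, so that the gap was 0.7 of the range of the 7 libraries. Ybx2 measured 72.0 in INTACT replicate 3 and 59.4 in the next of the 4 INTACT libraries, a gap of 0.855 of their range. The share of ambiguous reads was 0.168% in FANS replicate 6 and 0.187% in the next FANS library, a gap of 0.578 of the range. These 3 libraries stood apart by Dixon's criterion among 94 groups of values examined, and chance alone gives about 1 in 20. The log2 fold change of Rmrp was higher in batch 1 than in batch 2 by 0.80 (limma interaction term, adjusted p = 0.014).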

How the results depend on the processing

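The main counts were 14 enriched, 5 depleted, 124 higher and 46 lower genes. They were 6, 2, 241 and 99 with DESeq2; 14, 5, 139 and 44 with edgeR; 11, 3, 64 and 21 with no filter on low values; and 8, 2, 28 and 7 with the correction for GC content and gene span, which was chosen after seeing the data. The split of higher against lower was 94 to 62 with 75th percentile scaling and 87 to 60 with quantile normalization. Leaving out single libraries gave 5 to 35 enriched genes (without INTACT replicate 1 and FANS replicate 5), 1 to 10 depleted, 17 to 259 higher and 4 to 74 lower (each without INTACT replicate 1 and FANS replicate 2). Library quality weights gave 21 enriched and 7 depleted genes.

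The replicate numbers 1, 2 and 4 occur with both techniques, and the same-numbered libraries did not deviate together (correlations of -0.105, -0.21 and 0.0112). No INTACT library correlated best with its own number. With only 3 shared numbers these correlations cannot exclude a pairing, and the main fit used none. With the replicate block 3 genes were enriched, 0 depleted, 3 higher and 0 lower, the astrocyte median was 0.50, and 8 of 49 splicing factors were above 0, against 30 without the block.

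The median of the oligodendrocyte lineage list, 0.39, was 0.28 with a pseudocount of 5, 0.20 with a mean of at least 20, and 0.28, 0.24 and 0.51 without INTACT replicates 1, 2 and 4. The microRNA median, -0.15, was -0.01 with the GC and span correction and -0.08 without INTACT replicate 2. In the 17 settings compared by spread (the pseudocounts, the mean of at least 20, the scalings, this correction and each library left out) the other list medians moved by less than 1 SD between libraries, but the sign turned in at least 1 of 23 settings for 8 of the 25 lists, with main medians from -0.062 to 0.119. The C/D snoRNA median, -0.06, was 0.11 with the GC and span correction and 0.05 without INTACT replicate 4. The 17 called genes kept the call in 287 of 382 refits and lost it in 95. Mal kept it in 23 of 23, but Mir6516 in 10 of 22, Tspan2 in 11 of 23, Ugt8a in 13 of 23, Rplp1 and Ybx2 in 14 of 22 and Snora23 in 15 of 23. With the GC and span correction 9 lost it. Bcan (0.58) and Ptgds (0.57) still passed but fell just short of 1.5-fold, Olig1 (0.62), S1pr5 (0.61), Rplp1 (0.70), Scarna6 (-0.74) and Snora23 (-0.60) stayed past 1.5-fold without passing, and Ybx2 (0.48) and Mir6516 (-0.54) did neither. The 27 named genes that passed without being called lost this in 103 of 621 refits, the 39 that did not pass gained it in 29 of 884, and 0 reversed. The causes of these changes were not tested.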
